A study of Mus musculus with 26 samples.

Results

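In the mouse cochlea, 1693 stretches of chromatin were open in every ATAC library of the study but carried an H3K27ac peak in both libraries of permissive cells and in neither library of control cells. They were found by merging the peaks of the 6 ATAC libraries wherever they shared 1 bp, on chromosomes 1 to 19 and X, which gave 361941 regions. Of these, 24804 had a peak in all 6 ATAC libraries, and 1693 of the 24804 (6.83%) met the H3K27ac rule. The rule used the ATAC peaks of all groups and the H3K27ac peaks of permissive and control cells, so these values are described and not tested. It did not use the H3K27ac peaks of nonpermissive cells or any RNA.

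Cochleae from mice of postnatal day 1 were kept in culture with DAPT, an inhibitor of the gamma-secretase step that releases the active part of the Notch receptor, or with its solvent DMSO. At 48 h, supporting cells marked by TdTomato from Lfng-CreER (spelled Lfng-CreET/TdT in some labels) were sorted into 3 groups. Permissive cells came from DAPT cultures and carried both TdTomato and Atoh1-GFP. Nonpermissive cells came from DAPT cultures and carried TdTomato only. Control cells came from DMSO cultures and carried TdTomato only. Each group had 2 ATAC and 2 H3K27ac CUT&RUN libraries, with 3 permissive, 3 nonpermissive and 2 control RNA libraries. At 24 h, supporting cells positive for Lfng-GFP were sorted from DAPT and DMSO cultures for 3 RNA libraries each, with no split by fate. All cultures held EGF and FGF in the medium. The permissive gate is itself a reporter of Atoh1, so the rise of Atoh1 and of genes that accompany it is partly set by the sort. The labels do not say whether libraries of a group came from separate litters or cultures, so p-values measure the spread between these libraries, which may be technical.

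Acetylation of lysine 27 on histone H3 is laid down by CBP and p300 and marks promoters and enhancers that are in use. Open chromatin without it is often a site that is bound but not active, and such sites are commonly called poised or primed. In the neonatal cochlea, loss of Notch signalling lets some supporting cells take on hair cell fate under ATOH1, a basic helix-loop-helix factor that binds E-box sequences.

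The H3K27ac peak lists were of uneven quality. They held 114527 and 72280 peaks in permissive, 93854 and 46148 in nonpermissive and 57698 and 55254 in control replicates 1 and 2. With a deposited −log10 q of at least 4, 51193 and 4330 permissive, 51058 and 8246 nonpermissive and 7775 and 8183 control peaks were left. The first library of permissive and of nonpermissive cells thus stood apart from the other 4. With only such peaks on all sides the same rule gave 937 regions, and they overlapped 186 of the 1693. The threshold removed weak control peaks too, so the rest of the 937 had a control peak below it. The rest of the 1693 lacked a peak of this strength in at least 1 permissive library. Membership of a single region thus rests on weak peaks, and the second permissive library held the fewest strong ones. With the same number of peaks from every library it gave 1230 regions, which overlapped 1070 of the 1693. The ATAC lists were uneven too, with 86988 and 170910 peaks in permissive replicates 1 and 2. Of these, 22630 and 88642 had a −log10 q of at least 4. ATAC peaks with a −log10 q as low as 0.195 were listed, so openness in all libraries can rest on weak peaks. With only ATAC peaks of at least 4, 12892 regions were open in all 6 libraries and 781 met the rule. In the RNA, the summed level of 12 hair cell markers was 5910 to 7937 CPM (library-scaled read counts, with TMM normalization) in permissive, 289 to 368 CPM in nonpermissive and 152 to 279 CPM in control libraries, and that of 12 supporting cell markers was 651 to 849 CPM, 6840 to 12357 CPM and 9870 to 14926 CPM in the same groups. Both sums went with the labelled cells. Tecta made up 3371 to 8691 CPM of the supporting cell sum in nonpermissive and 4884 to 8550 CPM in control libraries. Not every marker followed the sum. Hes5 was at 0 to 2.23 CPM in nonpermissive and 298 to 813 CPM in control libraries. Prox1 overlapped, at 88.1 to 242 CPM in permissive and 137 to 269 CPM in nonpermissive libraries.

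The sequences below are RefSeq promoter windows on GRCm38.p6, the assembly that mm10 denotes, from 250 bases before to 50 bases after a start that lies inside one of the 1693 regions. They are shown because the regions had no nonpermissive H3K27ac peak and their genes were among the 10 largest RNA rises in permissive cells. Capitals mark CG dinucleotides, whose number differed with the nonpermissive state of the regions.
Myo3a: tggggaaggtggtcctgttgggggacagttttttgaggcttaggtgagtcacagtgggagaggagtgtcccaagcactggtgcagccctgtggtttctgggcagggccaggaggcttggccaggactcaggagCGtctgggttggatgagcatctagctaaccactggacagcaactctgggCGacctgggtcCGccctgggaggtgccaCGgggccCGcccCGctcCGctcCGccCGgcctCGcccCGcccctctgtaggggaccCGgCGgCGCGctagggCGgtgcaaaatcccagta
Scg3: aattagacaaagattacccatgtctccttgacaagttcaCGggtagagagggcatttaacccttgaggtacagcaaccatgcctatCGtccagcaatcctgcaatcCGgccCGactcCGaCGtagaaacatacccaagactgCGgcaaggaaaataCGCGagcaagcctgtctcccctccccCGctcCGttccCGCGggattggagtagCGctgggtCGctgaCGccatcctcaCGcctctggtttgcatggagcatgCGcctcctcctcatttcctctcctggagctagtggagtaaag
Tmem255b: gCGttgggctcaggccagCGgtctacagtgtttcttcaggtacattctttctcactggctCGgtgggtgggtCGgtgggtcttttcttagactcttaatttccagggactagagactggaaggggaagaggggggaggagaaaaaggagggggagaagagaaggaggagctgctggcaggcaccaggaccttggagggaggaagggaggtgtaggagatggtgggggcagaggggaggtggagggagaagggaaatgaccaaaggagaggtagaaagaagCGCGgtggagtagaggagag
Fstl4: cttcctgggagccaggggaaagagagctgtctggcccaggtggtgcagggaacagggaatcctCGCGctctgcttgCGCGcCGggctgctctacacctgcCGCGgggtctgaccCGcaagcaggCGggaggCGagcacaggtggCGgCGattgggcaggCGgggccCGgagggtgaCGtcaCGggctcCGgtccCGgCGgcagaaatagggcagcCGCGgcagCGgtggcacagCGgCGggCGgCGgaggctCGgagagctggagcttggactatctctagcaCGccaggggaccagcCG
Ccer2: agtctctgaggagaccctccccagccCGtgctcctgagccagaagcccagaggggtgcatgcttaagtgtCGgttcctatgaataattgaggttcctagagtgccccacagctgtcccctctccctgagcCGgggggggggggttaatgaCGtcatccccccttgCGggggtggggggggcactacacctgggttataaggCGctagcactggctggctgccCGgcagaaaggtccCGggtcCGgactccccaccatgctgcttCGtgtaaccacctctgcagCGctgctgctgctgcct
Kncn: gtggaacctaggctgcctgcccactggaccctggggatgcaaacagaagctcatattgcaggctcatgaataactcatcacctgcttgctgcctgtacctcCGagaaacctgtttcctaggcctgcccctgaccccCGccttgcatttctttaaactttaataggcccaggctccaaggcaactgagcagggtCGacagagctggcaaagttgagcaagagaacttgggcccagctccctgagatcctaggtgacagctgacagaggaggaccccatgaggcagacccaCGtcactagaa
Myo3a lies at chr2:22227253-22227552 on the plus strand, Scg3 at chr9:75684007-75684306 on the minus strand and Tmem255b at chr8:13435209-13435508 on the plus strand. Fstl4 lies at chr11:52764456-52764755, Ccer2 at chr7:28755924-28756223 and Kncn at chr4:115884150-115884449, all on the plus strand. The number of CG dinucleotides in these windows was 29 at Fstl4, 18 at Scg3, 16 at Myo3a, 11 at Ccer2, 6 at Tmem255b and 4 at Kncn. The E-box CAGCTG was present at base 109 of the Ccer2 window and at base 255 of the Kncn window, counted from the first base printed, and in none of the other 4. Kncn encodes kinocilin, a protein of the hair cell, and Myo3a an unconventional myosin of the stereocilia.

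The regions had no single position in the genome. Of the 1645 regions outside chromosome 18, 36.5% (exact 95% interval 34.1 to 38.9) lay within 1 kb of an annotated protein-coding start, 43.3% in a gene body and 20.2% between genes. Regions with the opposite pattern, acetylated in both control and neither permissive library, lay at promoters in 21.2% and between genes in 39.9%. Regions acetylated in all 4 of these libraries were at promoters in 60.1%, and all always open regions in 39.9%. The median width was 807 bp, against 793 bp over all always open regions. Every chromosome analysed held members, from 4.65% of the always open regions of chromosome 3 to 9.26% of those of chromosome X.

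The height of a peak is given as the authors' fold enrichment over background. The median permissive fold of the members was 5.95 in replicate 1 and 3.98 in replicate 2, against 3.97 and 3.19 over all peaks of these libraries. Ranked among the always open regions with a peak in the same library, the members had a median percentile of 40.3 and 47.3. The lower of the 2 permissive folds had a median of 3.19 and a lowest value of 2.39. The permissive peak covered at least 0.5 of the region's length at 80.4% of members in replicate 1 and at 44.2% in replicate 2. Just outside the rule, 2787 always open regions had a peak in 1 permissive and no control library, where that single fold, which is not the lower of a pair, had a median of 3.97. A further 2393 had peaks in both permissive libraries and 1 control library, with a median control fold of 4.11. The nearest control peak was within 500 bp of 221 members (13.1%), and its median distance was 8184 bp.

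The highest lower fold belonged to a region between genes at chr14:78790060-78791315 and to one near Atoh1 at chr6:64734135-64735082. The Atoh1 region had H3K27ac folds of 31.4 and 11.2 in the permissive libraries, a peak of fold 3.84 in nonpermissive replicate 1, and no peak in nonpermissive replicate 2 or in control. It lay 5010 bp from the start of Atoh1, beyond the gene. The other member at Atoh1, chr6:64728609-64730057, covered the promoter, with permissive folds of 31.4 and 6.38 and a nonpermissive fold of 3.84 in replicate 1. Some Atoh1 reporters carry the enhancer that lies downstream of the gene. The labels do not say what this reporter carries, and reads from such a copy would be counted at the gene's own enhancer, which was not tested.

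The nonpermissive state divided the regions into 3 sets. A nonpermissive H3K27ac peak was absent from both libraries at 602 members (35.6%, exact 95% interval 33.3 to 37.9), present in 1 library at 675 (39.9%) and present in both at 416 (24.6%, 22.5 to 26.7). These intervals cover counting error over regions only. With H3K27ac peaks of −log10 q of at least 4 on all sides, the share with no nonpermissive peak was 15.9%. Of the 675, 605 had the peak in replicate 1, the longer list, and 70 in replicate 2. By comparison, both nonpermissive libraries had a peak at 60.3% of the regions acetylated in control only, at 90.3% of those acetylated in permissive and control, and at 2.87% of those acetylated in neither. Over all 24804 always open regions the shares with 0, 1 and 2 nonpermissive peaks were 29.0%, 24.7% and 46.3%. Members thus stood between the unacetylated and the always acetylated regions. The share with both peaks was 33.3% at promoters, 22.6% in gene bodies and 14.2% between genes. The peaks of both nonpermissive lists carry the name of one and the same library, yet only 1 peak had the same coordinates in both, so they were taken as the separate samples that GEO records.

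**Figure D1:**
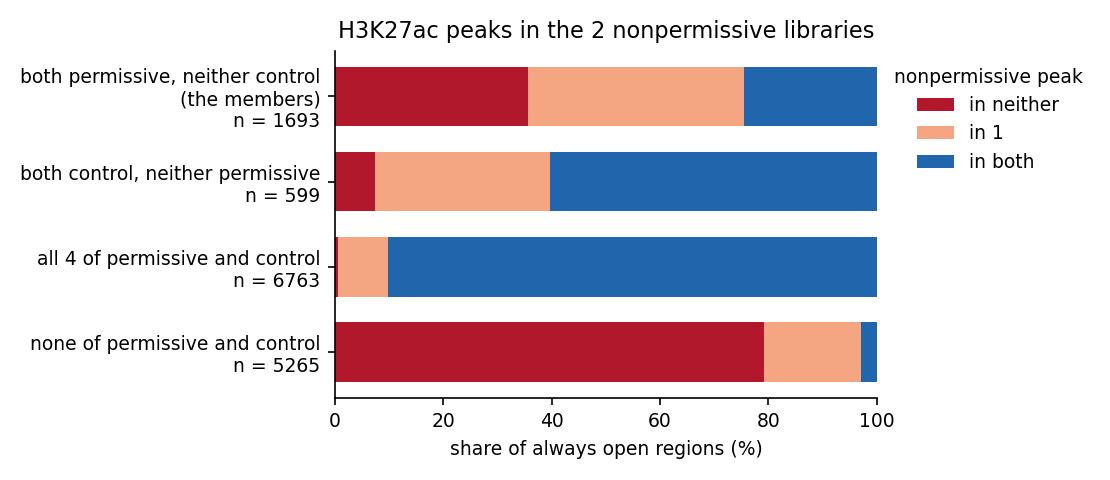
Share of always open regions (%, horizontal axis) with an H3K27ac peak in neither, 1 or both nonpermissive libraries, for 4 patterns of permissive and control H3K27ac peaks (rows). The members (top row) had a peak in both nonpermissive libraries at 24.6%, the regions acetylated in control only at 60.3%.

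Although every region was open in all libraries, its rank by ATAC height differed. Heights were ranked within each library over the 24804 always open regions, since the authors' fold differs in scale between libraries. The median percentile of the 1693 regions was 54.0 and 50.6 in permissive, 37.8 and 37.2 in nonpermissive and 37.7 and 36.9 in control libraries. The permissive libraries were the 2 highest and did not overlap the others. For members with no nonpermissive acetylation it was 49.4 and 45.6 in permissive, 28.5 and 30.0 in nonpermissive and 29.0 and 28.3 in control libraries. Members with both nonpermissive peaks had 60.2 and 52.3, 52.8 and 45.8, and 49.1 and 49.3 in the same order of groups. Regions acetylated in control only ran the other way, with 27.4 and 23.2 in permissive, 44.1 and 45.6 in nonpermissive and 46.7 and 49.1 in control libraries. With 2 libraries a group and regions chosen on permissive acetylation, no test was made of this difference. Single regions varied widely in rank. The Gfi1 promoter region had percentiles of 16.5 and 22.9 in nonpermissive and 0.62 and 2.65 in control libraries. For that of Myo3a they were 4.58 and 1.65, and 1.80 and 41.5. For that of Scg3 they were 71.4 and 98.0, and 92.3 and 96.6.

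**Figure D2:**
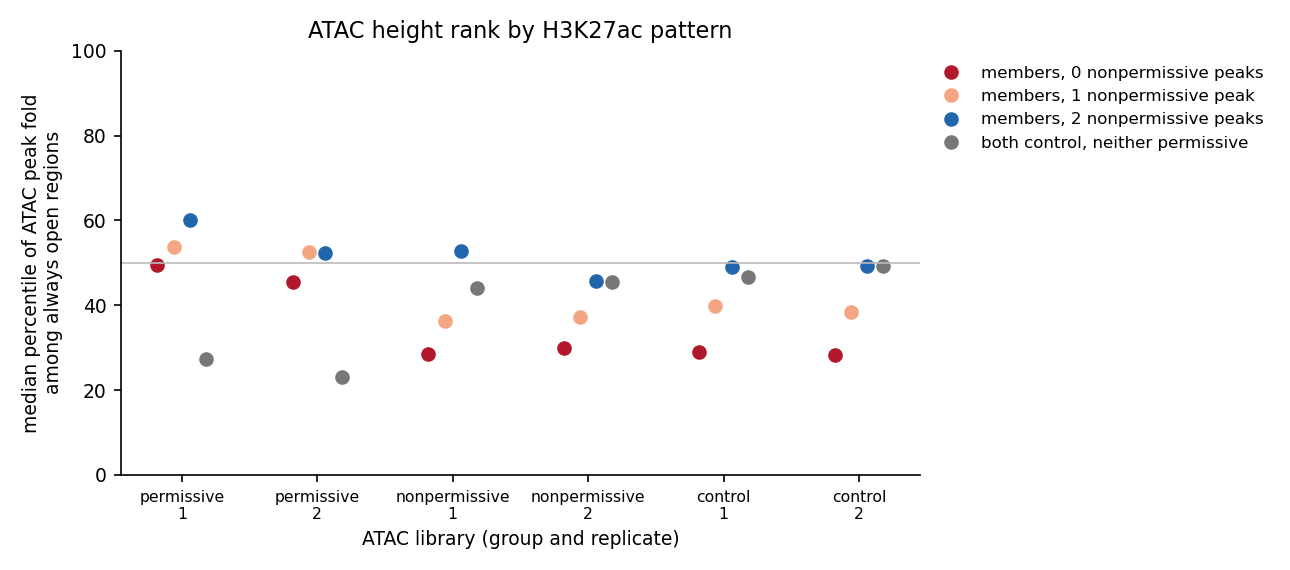
Median percentile of the ATAC peak fold among the 24804 always open regions (vertical axis) in each of the 6 ATAC libraries (horizontal axis), for members by their number of nonpermissive H3K27ac peaks and for regions acetylated in control only. Members with 0 nonpermissive peaks had 49.4 and 45.6 in permissive libraries and 28.3 to 30.0 in the other 4.

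Genes next to the regions were then read in the RNA, a measure that the rule did not use. A region was linked to the protein-coding gene with the nearest start, up to 50 kb away. Of the 1693 regions, 1189 were linked to 1108 genes, 456 had no start within that distance and the 48 on chromosome 18 were not analysed here for genes. Of the 1108 genes, 1097 were in the RNA tables and 939 passed the low-count filter at 48 h. At an adjusted p under 0.05 from the quasi-likelihood test of edgeR, with Benjamini-Hochberg adjustment over all 13411 genes tested, 144 of the 939 (15.3%) were higher in permissive than in control cells and 45 (4.79%) were lower. Over all genes tested, 5.72% were higher and 7.28% lower. Over the 8712 genes tested that were linked to any always open region, 5.13% were higher and 7.23% lower. The median log2 fold change was 0.38 for the linked genes and 0.06 for all genes. Genes linked to regions acetylated in control only were higher in 1.75% and lower in 36.1%, with a median of −1.51. Linked genes were 7.002% of the genes tested and 18.8% of the 767 genes called higher. Because sorted cells were measured in bulk, more cells of a type and more RNA per cell cannot be told apart.

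The rises followed the nonpermissive state. Of the genes tested with a member lacking both nonpermissive peaks, 92 of 337 (27.3%) were higher in permissive than in control cells and 12 (3.56%) were lower. With a nonpermissive peak in 1 library it was 48 of 364 (13.2%) higher and 17 (4.67%) lower. With a peak in both it was 17 of 276 (6.16%) higher and 18 (6.52%) lower, close to the share over all genes. A gene with members of several states was counted in each. With control RNA replicate 1 or 2 left out, the share without a nonpermissive peak was 20.1% and 18.3%, against 4.23% and 3.52% with both peaks. With the state read from nonpermissive replicate 1 alone, 26.6% of genes with no peak and 8.87% of those with a peak were higher. From replicate 2 alone it was 19.3% and 8.70%. The order was thus the same in each of these readings, which were added after the values were seen.

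The share also followed the number of regions at a gene. Of the 874 genes tested with 1 member, 13.96% were higher in permissive than in control cells, as were 29.1% of the 55 with 2 members and 6 of the 10 with 3 or more. These counts did not take account of how many always open regions a gene had, or whether neighbouring members shared an H3K27ac peak. By position, 17.4% of the genes with a member at the promoter, 14.2% with one in a gene body and 18.7% with one between genes were higher. In the same order, 2.44%, 7.72% and 7.46% were lower.

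**Figure D3:**
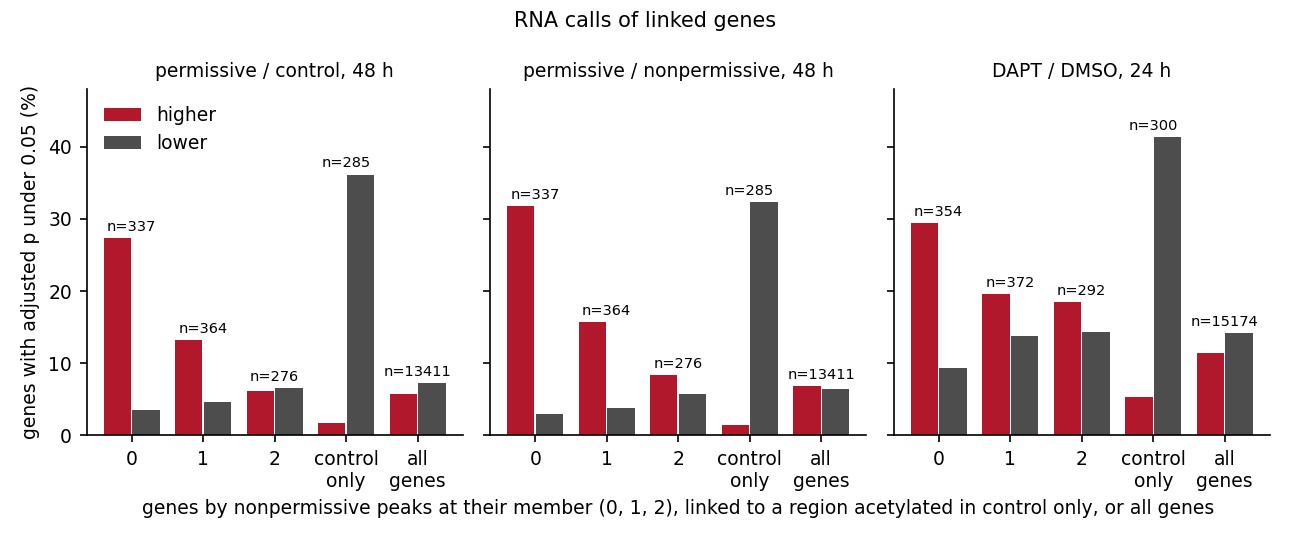
Share of linked genes (%, vertical axis) called higher or lower at an adjusted p under 0.05 in 3 RNA comparisons (panels), by the number of nonpermissive H3K27ac peaks at the linked member, for genes linked to a region acetylated in control only, and for all genes; n is the number tested. Between permissive and control cells, 27.3%, 13.2% and 6.16% of genes with 0, 1 and 2 nonpermissive peaks were higher, against 5.72% of all genes.

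Genes of Notch signalling between neighbouring cells were among those linked. Of the 7 Notch ligands and hair cell lineage partners listed, 4 were linked, and all 4 rose in permissive against control cells. So did the other 3, so that 7 of 7 rose in the whole list and the count of linked genes is the list's own. Dll1, a canonical Notch ligand, had 103, 83.7 and 93.8 CPM in permissive and 6.70, 2.85 and 50.9 CPM in nonpermissive libraries, and no count in either control library. Permissive cells were therefore at least 132-fold above control, taking 3 counts in each control library as the limit (adjusted p = 0.00109, edgeR). Nonpermissive replicate 3 was far above the other 2. The difference between permissive and nonpermissive cells, a log2 fold change of 2.20 ± 0.79 (SE), had an adjusted p of 0.0923 in edgeR. It passed with the replicate block (adjusted p = 0.0107), with DESeq2 (0.0279) and with no filter on low counts (0.00119). Without nonpermissive replicate 3 the log2 fold change was 4.22 (adjusted p = 0.00207, edgeR). Its region at chr17:15380560-15381317 lay 3628 bp from the start and had no nonpermissive peak.

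Dlk2, a delta-like protein, had 283, 409 and 194 CPM in permissive, 14.8, 4.57 and 35.5 CPM in nonpermissive and 0.374 and 0.571 CPM in control libraries. All 3 groups were apart. It rose in permissive cells by 9.22 ± 1.03 on the log2 scale (adjusted p = 0.000111, edgeR) and in nonpermissive cells by 5.24 ± 0.93 (adjusted p = 0.0391, and 0.0655 with the replicate block), although its promoter region lacked a nonpermissive peak. The nonpermissive call was also lost without control replicate 1 or 2 or without nonpermissive replicate 1 or 3, with adjusted p of 0.0777 to 0.229. Hes6, which opposes the repressor HES1, had 183, 318 and 264 CPM in permissive, 35.7, 25.7 and 71.4 CPM in nonpermissive and 5.80 and 7.99 CPM in control libraries. Its region had both nonpermissive peaks, and its log2 fold change of permissive over control was 5.21 ± 0.63 (adjusted p = 0.000211, edgeR). The ligand Jag2 rose by 5.04 ± 0.90 (adjusted p = 0.00218, edgeR).

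Of 25 hair cell transcription factors and cofactors listed, 7 were linked and 4 of them rose in permissive against control cells. In the whole list 9 of the 21 tested rose and 2 fell. Atoh1 had 804, 1008 and 635 CPM in permissive, 30.2, 41.1 and 67.2 CPM in nonpermissive and 3.55 and 2.28 CPM in control libraries. All 3 groups were apart, and both members at Atoh1 had a peak in 1 nonpermissive library. Atoh1 rose by 8.09 ± 0.68 on the log2 scale in permissive cells and by 3.95 ± 0.57 in nonpermissive cells, both against control (adjusted p = 3.17e-05 and 0.0127, edgeR). The nonpermissive rise was lost without control replicate 1 or 2 or nonpermissive replicate 3 (adjusted p of 0.0690, 0.166 and 0.0559). Gfi1, a zinc-finger repressor that hair cells need to survive, had 97.8, 151 and 129 CPM in permissive, 1.12, 2.28 and 1.28 CPM in nonpermissive and 0.374 and 0 CPM in control libraries. Only the permissive libraries were high, and its promoter region had no nonpermissive peak. With 2 counts in control, the ratio of permissive to control was 535 (counting interval 148 to 4420). Lhx3, a LIM homeodomain factor, rose by 8.95 ± 0.93 (adjusted p = 8.67e-05, edgeR), and Srrm4, a splicing regulator needed by hair cells, by 7.68 ± 0.84. Rfx1, Rfx2 and Six2 did not pass the test, with log2 fold changes of 0.92 ± 0.50, 1.01 ± 1.07 and −1.97 ± 0.86.

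The longest list, of hair bundle, mechanotransduction and actin genes, held the most linked genes, 14 of 45. Over all 17274 protein-coding genes with an annotated start, 1108 were linked. Of the 14, 12 rose in permissive against control cells and none fell. In the whole list 31 of the 42 tested rose and 1 fell, so a rise was common in the list as a whole. Myo3a had 112, 64.9 and 89.8 CPM in permissive, 0.279, 0 and 0.960 CPM in nonpermissive and no count in control libraries, at least 125-fold above control (adjusted p = 0.000106, edgeR). Its promoter region had permissive folds of 8.27 and 3.19 and no other H3K27ac peak. Cdh23, a cadherin of the tip link, had 563, 312 and 240 CPM in permissive, 1.12, 0 and 0.640 CPM in nonpermissive and 0.187 and 1.43 CPM in control libraries. Nonpermissive and control cells overlapped at Cdh23, and the permissive libraries were far above both. Espnl, an actin-binding relative of espin, had 671, 628 and 293 CPM in permissive, 4.47, 5.14 and 5.44 CPM in nonpermissive and 2.81 and 2.00 CPM in control libraries. Its promoter region had permissive folds of 21.2 and 6.38 and a nonpermissive peak in replicate 2 only. Myo15, Espn, Eps8l2, Anxa4, Atp2b2 and Myo1h also rose, by 4.04 to 8.91 on the log2 scale. Tmie had a value of 2.92 ± 1.11 (adjusted p = 0.108, edgeR) and Whrn of 2.30 ± 0.73 (adjusted p = 0.0546, edgeR), so neither passed.

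**Figure D4:**
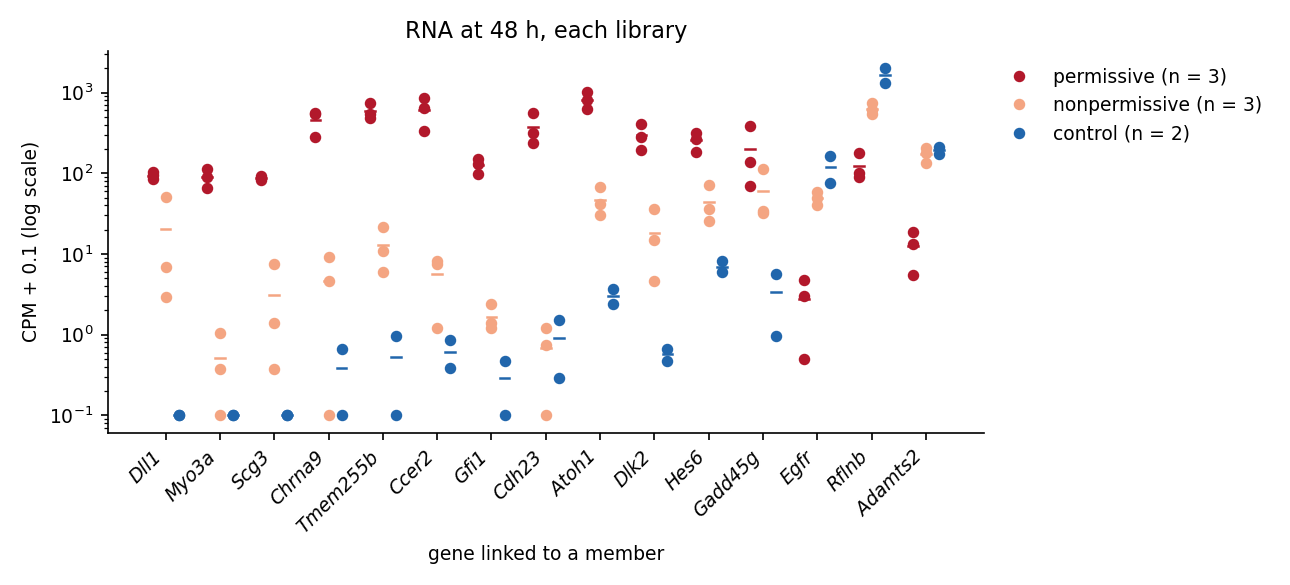
RNA level at 48 h (CPM + 0.1, log scale) of 15 genes linked to members in each permissive, nonpermissive and control library (points), with the group mean (bar). For Dll1, Myo3a and Scg3 both control libraries had no count, and the last 3 genes on the right, Egfr, Rflnb and Adamts2, were lower in permissive libraries.

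Of 44 genes of synapse, vesicle and excitability, 9 were linked and 6 rose in permissive against control cells, while 23 of the 38 tested in the whole list rose and 1 fell. Chrna9, a subunit of the acetylcholine receptor at efferent synapses, had 279, 537 and 564 CPM in permissive, 0, 9.14 and 4.48 CPM in nonpermissive and 0 and 0.571 CPM in control libraries. Scg3, a secretogranin of dense-core granules, had 93.5, 87.0 and 82.5 CPM in permissive, 0.279, 7.42 and 1.28 CPM in nonpermissive and no count in control libraries. The permissive libraries were high and close together for Scg3, at least 124-fold above control. The potassium channel gene Kcna10 had 21.0, 60.2 and 29.5 CPM in permissive, 0.320 CPM in 1 nonpermissive library and no count elsewhere. Chga, Chgb and Slc26a5, which encodes the outer hair cell motor prestin, rose as well. Pclo, Dnm3 and Cadps did not pass the test.

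The rule for naming genes took the 10 largest rises among those with no overlap of libraries, and all 10 had members with no nonpermissive peak. Of the 144 linked genes called higher, 92 had such a member, as did 337 of the 939 linked genes tested. Besides Dll1, Myo3a, Scg3, Chrna9 and Kcna10 the 10 named genes were Tmem255b, Fstl4, Ccer2, Kncn and Myt1. Ccer2 had 338, 859 and 645 CPM in permissive, 1.12, 7.42 and 8.00 CPM in nonpermissive and 0.748 and 0.285 CPM in control libraries. Tmem255b had 481, 739 and 550 CPM in permissive, 5.86, 10.8 and 21.4 CPM in nonpermissive and 0 and 0.856 CPM in control libraries. Nonpermissive cells were above control for Tmem255b, with a log2 fold change of 5.02 ± 0.92 (adjusted p = 0.0494, edgeR), a call that was lost with the size factors of DESeq2 and without any of 5 libraries (adjusted p of 0.0518 to 0.222). Fstl4 had 2 members, 1 at the promoter and 1 in the gene body, and was at least 60.8-fold above control. Myt1, a zinc-finger factor, had 50.8, 12.7 and 8.09 CPM in permissive libraries and no count in any nonpermissive or control library, at least 33.7-fold above control.

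The lists of this paragraph held 1 to 4 linked genes each, where 1108 of all 17274 protein-coding genes with an annotated start were linked. Among them the linked share was below that over all genes only in the cilium, Notch pathway and matrix lists. Of 42 supporting cell and prosensory genes 3 were linked. Pax2 rose by 4.30 ± 1.23 on the log2 scale (adjusted p = 0.0328, edgeR, and 0.0570 with the replicate block), while Prox1 and Fgfr3 did not pass. Its level was low, at 12.4, 4.35 and 6.47 CPM in permissive, 0.558, 0.571 and 0.640 CPM in nonpermissive and 0.187 and 0.571 CPM in control libraries, and the call was lost without permissive replicate 1 or either control library (adjusted p of 0.103 to 0.221). The growth factor list held 3 linked genes, of which Bdnf, a neurotrophin that sensory neurons depend on, rose by 4.85 ± 0.80. Tcf7l2, a transcription factor of Wnt signalling, fell by 2.49 ± 0.60 (adjusted p = 0.0134, edgeR), a call lost without control replicate 1 (adjusted p = 0.159). Ccdc40 was the one linked gene of 28 in the cilium list and rose by 5.68 ± 0.91. Of 17 Notch pathway genes only Maml2 was linked, and of 25 matrix genes only Col4a2; neither passed. None of the 3 linked cell cycle genes or the 4 linked chromatin genes passed. Between permissive and control cells, 3 of the 42 supporting cell genes tested rose and 23 fell, 4 of 34 growth factor genes rose and 9 fell, and 9 of 19 cilium genes rose and 1 fell. In the Notch pathway list 10 of 16 fell and in the matrix list 14 of 23, and none rose in either. Of 26 cell cycle genes 4 rose and 1 fell, and of 32 chromatin genes 1 rose and 1 fell.

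Of 26 stress and immediate early genes 3 were linked, and of the 23 tested 1 rose and 8 fell between permissive and control cells. Gadd45g, a stress-response gene, had 138, 390 and 69.1 CPM in permissive, 34.3, 32.5 and 112 CPM in nonpermissive and 5.61 and 0.856 CPM in control libraries. Permissive and nonpermissive libraries overlapped, and its promoter region had both nonpermissive peaks. It rose by 5.87 ± 1.04 on the log2 scale in permissive against control cells (adjusted p = 0.00214, edgeR). Fosb, a subunit of AP-1, fell by 3.08 ± 0.75 (adjusted p = 0.0148, edgeR, and 0.114 without control replicate 1), with 93.3, 16.1 and 26.3 CPM in permissive, 536, 124 and 189 CPM in nonpermissive and 543 and 227 CPM in control libraries.

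Gain of acetylation also lay near genes that fell. The 8 largest falls among linked genes were Egfr, Adamts2, Rlbp1, Synm, Rflnb, Cntn1, Plekhh1 and Sertad4. Egfr, the receptor for EGF, had 2.89, 4.69 and 0.404 CPM in permissive, 58.1, 40.0 and 49.6 CPM in nonpermissive and 166 and 75.9 CPM in control libraries, and fell by 5.45 ± 0.70 on the log2 scale (adjusted p = 0.000277, edgeR). Adamts2, a procollagen protease, had 13.2, 5.36 and 18.6 CPM in permissive, 204, 133 and 179 CPM in nonpermissive and 211 and 173 CPM in control libraries. Rflnb, a filamin-binding protein, had 100.7, 179 and 88.6 CPM in permissive, 616, 536 and 747 CPM in nonpermissive and 2011 and 1300 CPM in control libraries. All 8 genes were lower in every permissive library than in any control library, as the naming rule required. Of these, 7 had their region 16448 to 48034 bp from the start, and Cntn1 had it at the promoter. Egfr, Plekhh1, Rflnb and Rlbp1 were also linked to a region acetylated in control only. The fall of Sertad4 was lost without control replicate 1 or 2 (adjusted p of 0.0782 and 0.0522).

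The genes with the most regions were Triobp with 4 and, with 3 each, Atp11a, Casz1, Cib2, Fbxl18, Gse1, Lmo1, Rasd2, Rufy3 and Zfp503. Triobp, which bundles actin in the rootlets of stereocilia, had 466, 242 and 268 CPM in permissive, 102, 25.7 and 66.6 CPM in nonpermissive and 56.8 and 36.2 CPM in control libraries. It rose by 2.80 ± 0.61 on the log2 scale (adjusted p = 0.00787, edgeR, and 0.0927 without control replicate 2). Its 4 members held every nonpermissive state, and the one in the gene body at chr15:78986708-78987356 had the highest permissive folds, 17.2 and 8.77. Cib2, a calcium-binding protein of mechanotransduction, rose by 5.81 ± 0.69, and its 3 members had 0, 1 and 2 nonpermissive peaks. Casz1, a zinc-finger factor, had 3 members without a nonpermissive peak and rose by 7.60 ± 0.91, with 212, 129 and 81.3 CPM in permissive, 8.10, 2.28 and 12.2 CPM in nonpermissive and 0.561 and 0.856 CPM in control libraries. Zfp503 also had 3 such members and rose by 4.13 ± 0.84 (adjusted p = 0.00527, edgeR, and 0.0573 without control replicate 1). Lmo1 and Rasd2 rose too. Fbxl18, Gse1, Atp11a and Rufy3 did not pass, with log2 fold changes of 0.35 ± 0.78, 4.26 ± 1.46, 1.29 ± 0.47 and 1.88 ± 0.64. With the replicate block Atp11a and Rufy3 passed (adjusted p = 0.0313 and 0.0337, edgeR), and Rufy3 also passed with DESeq2 (adjusted p = 0.0263). Gse1 passed with DESeq2 (adjusted p = 0.00843), with no filter on low counts (0.00481), and without nonpermissive replicate 2 (0.0403) or permissive replicate 2 (0.0338).

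Between permissive and nonpermissive cells, both treated with DAPT, 170 of the 939 linked genes (18.1%) were higher and 38 (4.05%) lower, against 6.78% and 6.35% of all genes. The same order by nonpermissive state appeared, with 31.8%, 15.7% and 8.33% higher for genes whose members had 0, 1 and 2 nonpermissive peaks. This comparison shares its permissive libraries with the previous one. Cdh23 was higher in permissive than in nonpermissive cells by 9.01 ± 0.79 on the log2 scale (adjusted p = 3.67e-05, edgeR) and Espnl by 6.72 ± 0.52 (adjusted p = 2.50e-05, edgeR). Gadd45g, with both nonpermissive peaks, had 1.73 ± 0.71 (adjusted p = 0.134, edgeR, and 0.00429 with no filter on low counts).

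Few linked genes differed between nonpermissive and control cells. With edgeR, 4 of the 939 (0.426%) were higher and 1 (0.106%) lower, against 0.0671% and 0.127% of all genes. At an unadjusted p under 0.05 it was 97 linked genes (10.3%), against 7.35% of all genes. The 4 were Atoh1, Dlk2, Tmem255b and Tnfaip8l1, and the 1 was Asic2, an acid-sensing channel; Tnfaip8l1 and Asic2 were singled out after their values were seen. Asic2 had 23.7, 4.69 and 12.1 CPM in permissive, 1.68, 0.571 and 0.320 CPM in nonpermissive and 50.3 and 47.6 CPM in control libraries. Tnfaip8l1 had 46.2, 126 and 126 CPM in permissive, 10.9, 12.6 and 42.9 CPM in nonpermissive and 0 and 0.571 CPM in control libraries. The number called depended on the test, at 20 genes with DESeq2 and 30 with no filter on low counts. With DESeq2, 1.61% of linked genes were higher and 0.285% lower, against 0.355% and 0.341% of all genes. With no filter it was 1.99% and 0.855%, against 0.595% and 0.798%. The number also depended on single libraries. It was 0 without control replicate 2 or nonpermissive replicate 3, 1 without control replicate 1 and 2 without nonpermissive replicate 2.

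At 24 h, before the fates were sorted apart, 214 of 979 linked genes (21.9%) were higher and 122 (12.5%) lower in DAPT than in DMSO cells, against 11.5% and 14.2% of all 15174 genes tested. By nonpermissive state the higher share was 29.4%, 19.6% and 18.5% for 0, 1 and 2 peaks. The summed level of the 12 hair cell markers was 1832 to 2206 CPM in DMSO and 4546 to 7722 CPM in DAPT libraries. In the 48 h control libraries, from another sort, it was 152 to 279 CPM. The 24 h DMSO cells thus already held hair cell RNA, and its part in the 24 h values was not tested. Atoh1 had 718, 643 and 666 CPM in DAPT and 69.8, 64.0 and 78.9 CPM in DMSO libraries, with no overlap. Hes6 had 1343, 1384 and 1422 CPM in DAPT and 110, 100.9 and 111 CPM in DMSO libraries. Gadd45g had 494, 437 and 556 CPM in DAPT and 18.4, 11.2 and 19.4 CPM in DMSO libraries, a log2 fold change of 4.93 ± 0.21 (adjusted p = 2.22e-06, edgeR). Kcna10 had 65.8, 95.5 and 24.2 CPM in DAPT and 31.0, 37.8 and 34.5 CPM in DMSO libraries, where DAPT replicate 3 was below all DMSO libraries, and it did not pass (adjusted p = 0.153, edgeR). It passed without that library, with a log2 fold change of 1.23 (adjusted p = 0.000465, edgeR), and with no filter on low counts (adjusted p = 0.0342). Without that library 428 linked genes were called in place of 336, and 29.2% of linked genes were higher, against 15.3% of all genes. Of the 142 linked genes higher in permissive cells at 48 h and tested at both times, 110 (77.5%) were also higher at 24 h, which is 53.1% of the 207 higher at 24 h. Over all genes tested at both times, 484 of 732 (66.1%) were also higher at 24 h, 29.6% of 1637.

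Levels of markers of other cell types moved between the groups as well. The summed level of 6 neuronal markers was 127 to 208 CPM in permissive, 2.24 to 10.3 CPM in nonpermissive and 4.68 to 4.85 CPM in control libraries. Snap25 made up 80.0 to 170 CPM of this in permissive libraries. The neurofilament genes were higher there too, with Nefl at 11.6 to 47.7 CPM in permissive, 0.558 to 3.997 CPM in nonpermissive and 0 CPM in control libraries, and Nefm at 16.9 to 39.2, 0 to 1.14 and 0 to 0.187 CPM. Elavl4 was at 6.02 to 8.46, 0 to 1.40 and 0 to 2.24 CPM in the same groups. Tubb3 was lower in permissive than in control libraries, at 0.335 to 1.65, 0 to 0.558 and 1.68 to 3.42 CPM. Neurod1 was at 0 in every library. The sum of 5 blood markers was 60.9 to 249, 16.0 to 75.5 and 26.4 to 49.1 CPM in the same groups, mostly Laptm5 in permissive libraries, with Tyrobp at 0 to 0.404 CPM there. That of 5 endothelial markers was 38.2 to 74.8, 62.8 to 174 and 10.5 to 10.6 CPM. Among them Kdr was at 10.3 to 24.1 CPM in permissive, 14.3 to 62.4 CPM in nonpermissive and 0.187 to 0.856 CPM in control libraries, Pecam1 at 5.69 to 19.8, 17.7 to 46.4 and 1.496 to 2.57 CPM, and Cldn5 at 2.68 to 6.87, 2.85 to 11.5 and 0 to 0.561 CPM. Tek reached at most 0.838 CPM in any library. Sums of 8 mesenchymal and 5 glial markers were 227 to 652 and 95.7 to 271 CPM in permissive, 1376 to 3398 and 519 to 740 CPM in nonpermissive and 608 to 2660 and 493 to 927 CPM in control libraries. Of 5 melanocyte and stria markers, the sum was 6.47 to 25.4 CPM in permissive, 188 to 350 CPM in nonpermissive and 217 to 483 CPM in control libraries, mostly Kcnj10. Of all these lists only the blood marker Ptprc was linked to a member. The part of such cells in the results was not tested.

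The promoters inside the regions were mostly rich in CG. Of the members, promoter windows of 570 genes gave 575 windows with a start inside, with a median of 23 CG dinucleotides and 63.7% G and C. At most 5 CG dinucleotides were present in 4.35% of these windows, in 8.14% of those without a nonpermissive peak, in 0.503% of those with both, in 2.81% of the windows inside any always open region and in 31.7% of all 21045 protein-coding windows. CAGCTG, which reads the same on both strands, was present in 16.0% of the 575 windows, in 14.5% of always open windows and in 15.7% of all windows. The other motifs were searched on both strands, and member windows are given first, then windows in any always open region, then all promoter windows. CAGATG, an E-box that ATOH1 also binds, was in 10.96%, 10.2% and 14.4%. GTGGGAA, the core bound by RBPJ, was in 4.35%, 5.73% and 6.07%, and TGANTCA, the AP-1 site, in 3.48%, 3.77% and 7.04%. GGGCGG, the GC box, was in 71.5%, 70.8% and 46.7%, and the X-box bound by RFX factors in 2.26%, 1.65% and 1.55%. AAATCAC (GFI1) was in 1.39%, 1.65% and 2.85%, ACATTCC (TEAD) in 2.43%, 2.26% and 3.41%, AACAATG (SOX) in 1.22%, 1.60% and 3.22%, and CATAATTA (POU4F class) in 0%, 0.187% and 0.499%. Each share over all member windows lay near that of the always open windows. Split by nonpermissive state, CAGCTG was in 21.5%, 15.2% and 12.1% of the 172, 204 and 199 windows with 0, 1 and 2 peaks. In windows of 150 bases it was in 11.6%, 5.39% and 8.54%. GTGGGAA was in 1.74%, 6.37% and 4.52%, and the X-box in 4.07%, 0.490% and 2.51%. Some counts were small, with 3 GTGGGAA and 7 X-box windows among the 172. No test was made of these differences.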

How the data were processed

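RNA was deposited as RSEM expected counts and TPM per gene, and ATAC and H3K27ac CUT&RUN as MACS2 peak lists with a fold (a ratio over background) and −log10 p and −log10 q per peak. Per the submitters' processing notes the tools were STAR, RSEM, DESeq2, Bowtie2, MACS2 and UMI-tools, with build mm10; no versions are stated. Each deposited list belongs to 1 sample, so peaks were taken as called per sample. The deposited TPM values were not used; the deposited −log10 p served to keep equal numbers of peaks. The members and the gene lists were chosen with earlier results of these data known.

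Expected counts were rounded and tested with edgeR 4.0.16 (R 4.3.3; filterByExpr, TMM, quasi-likelihood test, Benjamini-Hochberg adjustment over all genes), 8 libraries of 48 h in one fit and 6 of 24 h in another. The 24 h libraries held 10666000 to 13158859 counts and the 48 h libraries 2165340 to 4896371. Folds against a group without counts are bounds at 3 counts per library. Starts and gene bodies came from RefSeq on GRCm38.p6; exons and introns were not told apart. Confidence intervals are exact (Clopper-Pearson). Scripts were tested on simulated counts.

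Genes were named by rule: the 10 largest rises and 8 largest falls with adjusted p under 0.05, an average log2 CPM no lower than 3 and no overlap between permissive and control libraries, up to 3 genes of each list, and the 5 genes with the most members, where ties at the last place gave 10. Motifs were planned for windows around ATAC summits; without a genome, RefSeq promoter windows replaced them, a choice made after seeing the files. At 48 h, deviations of same-numbered permissive and nonpermissive libraries had correlations of 0.54, 0.13 and 0.11 over 9497 genes, for replicates 1, 2 and 3. Control replicate 1 correlated with permissive replicate 1 (0.48) and nonpermissive replicate 1 (0.30). Control replicate 2 correlated more with permissive replicate 3 (0.35) than with permissive replicate 2 (0.16). The main fit did not use replicate numbers. The replicate block, an alternative, took its pairing from the labels' numbers. Permissive replicate 2 and nonpermissive replicate 3 correlated more with each other (0.17) than with the library of their own number.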

Additional observations from a re-analysis of the deposited data

How the results depend on the processing

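Under the peak alternatives the number of members was 1562 where H3K27ac peaks had to cover 0.5 of a region (692 of the 1693 overlapped), 1700 with regions widened by 500 bp, 937 with H3K27ac peaks and 781 with ATAC peaks of −log10 q of at least 4. Leaving out 1 library gave 1678 to 3825, with 3825 without permissive H3K27ac replicate 2, 2614 and 3165 without control H3K27ac replicates 1 and 2; fewer libraries then decide membership. The share with both nonpermissive peaks was 27.5% and 33.3% at the stricter H3K27ac and ATAC thresholds, and 18.95% to 60.3% with 1 library left out, the highest without nonpermissive H3K27ac replicate 2, where 1 peak decides. The share with no nonpermissive peak, 35.6% in the main setting, was 15.9% and 27.7% at these thresholds. With 0.5 of a region covered it was 28.8%, and with equal numbers of peaks 42.0%. It was 25.7% and 21.7% without control H3K27ac replicates 1 and 2, and 44.2% and 41.3% without the permissive ones. Without nonpermissive H3K27ac replicate 1 or 2 it was 71.3% or 39.7%.

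Linked genes called between permissive and control numbered 91 and 82 at the stricter H3K27ac and ATAC thresholds, where fewer regions are linked, and 123 to 198 with 1 RNA library left out, the lowest without control replicate 2. The share higher was 11.4% and 12.6% at these thresholds, against 5.72% of all genes. It was 11.2% with 0.5 of a region covered and 10.6% with every gene within 50 kb. Without control replicate 1 or 2 it was 10.6% and 9.83%, against 2.80% and 2.91% of all genes. Between permissive and nonpermissive the number was 88 and 93, and 158 to 212. The share higher was 12.3% and 15.2% at these thresholds, against 6.78% of all genes. Between nonpermissive and control the number was 1 and 2, 3 with 0.5 of a region covered, 20 with DESeq2, 30 with no filter on low counts and 0 to 6 with 1 library left out. At 24 h the number was 217 and 162, 583 with every gene within 50 kb, and 238 to 428. The share higher was 25.2%, 20.6% and 17.4% in the first 3 of these, against 11.5% of all genes. The share of rises at members without a nonpermissive peak was 19.3% with the state from nonpermissive replicate 2 alone, 20.7% with 0.5 of a region covered and 18.3% to 29.5% with 1 RNA library left out. CAGCTG was in 8.35% of windows of 150 bases, which are shorter by construction.

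For named genes, 1786 values kept their side of the threshold, 54 no longer passed, 36 newly passed and none changed direction. With the replicate block the permissive cells gave 214 calls against control cells and 258 against nonpermissive cells, in place of 189 and 208, and nonpermissive against control cells 4 in place of 5. With the block 17.4% and 21.7% of linked genes were higher in permissive cells, against 6.67% and 7.93% of all genes. The 5 calls it changed are given beside their genes. At 24 h same-numbered libraries did not deviate together (correlations of −0.03, −0.07 and −0.07), and the block gave 300 calls in place of 336. With it 19.6% of linked genes were higher, against 9.30% of all genes. No DAPT library correlated best with its own number.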
